A study of Mus musculus with 778 samples.

Results

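The 10 genes described here act in the piRNA pathway of germ cells, and they were chosen by name from the table of UMI counts of single mouse oocytes: Ddx4, Piwil1, Piwil2, Piwil4, Mael, Asz1, Mov10l1, Tdrd1, Tdrd9 and Tdrkh. All 10 had a row among the 23201 genes of the table, and 9 of them passed 10 CPM (UMIs of the gene per 1e+06 UMIs) in at least 1 stage, the exception being Piwil4. The study measured chromatin accessibility, DNA methylation and, in separate oocytes, polyA RNA during growth, and the RNA part is used here. The table held 223 oocytes, washed and picked singly, from ovaries of female ICR mice, an outbred strain, all wild type and without treatment. Non-growing oocytes (NGO, 46 cells, diameter under 20 µm) came from mice of 3 to 4 days of age. The growing stages GO1 (51 cells, 30 to 45 µm), GO2 (26 cells, 50 to 55 µm) and GO3 (44 cells, 60 to 65 µm) and the fully grown oocytes (FGO, 56 cells, over 70 µm) came from mice of 3 to 4 weeks. Stage was assigned by diameter, so NGO and the later stages also differed in the age of the mouse, and stage and age cannot be told apart in any comparison with NGO.

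piRNAs are small RNAs bound by PIWI proteins, a germline branch of the Argonaute family, and they guide the silencing of transposons. Their long precursor transcripts are handed by RNA helicases to the outer mitochondrial membrane and to the cytoplasmic granules known as nuage, where they are cut, loaded onto PIWI proteins and trimmed. Tudor domain proteins hold these steps together by binding methylated arginines on the PIWI proteins. In mice the loss of many of these genes stops spermatogenesis and derepresses transposons in the testis, whereas the females are commonly fertile, and mouse oocytes also make endogenous siRNAs with Dicer.

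Each stage is 1 pooled sample, since the cells could not be assigned to the 4 libraries. No test and no standard error between stages was therefore computed, and the animals behind each stage were not identified. Values are CPM of the UMIs summed over the cells of a stage, with exact Poisson intervals at 95%, and each ratio of stages carries an exact binomial interval computed from the UMIs of both. All intervals cover counting error only. A gene is said to have risen or fallen only where the CPM values of the stages were 2-fold or more apart and the larger reached 10 CPM, which is a rule of size and not a test. The stage totals were 25198132 to 64311908 UMIs with 110146 UMIs in the median GO1 cell and 540432 to 972294 in the median cell of the other stages. The 10 deepest cells held 80.4% of the GO1 UMIs and 73.2% of the GO2 UMIs, against 42.6% to 49.7% elsewhere, so the sums of GO1 and GO2 rest on few cells. All 10 oocyte markers, such as the zona pellucida genes Zp1 to Zp3, were detected in every stage, with 15882 to 28463 CPM together. The 9 granulosa cell markers summed to 16.5 to 42.4 CPM, highest in GO1, and the defining granulosa genes Amh and Foxl2 were at 0.2 CPM or less in NGO and GO1. From NGO to GO1 Cyp19a1 rose from 1.11 to 16.3 CPM and Nr5a2 from 6.91 to 14.5 CPM, and Kitl was 1.35 and 5.49 CPM. The 6 stromal markers summed to 7.98 CPM in NGO and to 0.42 to 0.65 CPM elsewhere, and 1 NGO cell held 80.1% of the NGO stromal UMIs. Without that cell the same members rose or fell in each comparison. The 7 blood and endothelial markers summed to 11.2 CPM in NGO and 30.8 to 55.5 CPM later, with 4 of the 7 at 0 in NGO, GO1, GO2 and FGO and 2 in GO3. Most of the later sums was 1 gene, Pecam1, at 4.60 CPM in NGO and 26.7 to 48.8 CPM later. Pecam1 rose from NGO to GO1, where it had 37.6 CPM. The part of the granulosa and blood cell markers in the results was not tested.

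Promoter sequences were available in RefSeq (build GRCm38.p6) for 9 of the 10 genes, Piwil2 being the other. In windows of 300 bases, 250 before and 50 after the start of transcription, the palindromic hexamer CACGTG, an E-box, was present for 6 of the 9 genes: Ddx4, Mael, Mov10l1, Piwil1, Tdrd1 and Tdrd9. It was present in 7.15% of all 32851 promoters of that length, and in 10.9% of the 14281 promoters with at least 10 CpG. The 250 bases upstream of the start are shown for these 6 genes, because the E-box was, of the 3 motifs searched, the one found for most of them. Each is read 5′ to 3′ on the strand of the gene, in lower case with the CACGTG matches in capitals, and for Tdrd1 the first of 3 annotated starts is given.
Ddx4, chr13:112652311-112652560, minus strand: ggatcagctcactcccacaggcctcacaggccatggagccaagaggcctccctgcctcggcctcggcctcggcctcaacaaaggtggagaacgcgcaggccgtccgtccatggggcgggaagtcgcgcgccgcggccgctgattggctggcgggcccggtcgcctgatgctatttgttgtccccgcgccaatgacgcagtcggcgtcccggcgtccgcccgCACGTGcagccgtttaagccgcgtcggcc
Mael, chr1:166238745-166238994, minus strand: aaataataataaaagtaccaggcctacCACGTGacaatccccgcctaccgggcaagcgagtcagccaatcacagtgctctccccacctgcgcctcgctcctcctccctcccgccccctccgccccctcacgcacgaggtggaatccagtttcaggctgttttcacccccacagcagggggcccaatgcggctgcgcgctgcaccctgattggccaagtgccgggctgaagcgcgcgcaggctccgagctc
Mov10l1, chr15:88982744-88982993, plus strand: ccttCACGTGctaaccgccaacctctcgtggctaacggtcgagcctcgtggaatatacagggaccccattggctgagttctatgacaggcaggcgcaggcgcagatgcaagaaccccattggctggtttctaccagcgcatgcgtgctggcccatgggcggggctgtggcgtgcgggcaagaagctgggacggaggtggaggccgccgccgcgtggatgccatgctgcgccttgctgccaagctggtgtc
Tdrd9, chr12:111971309-111971558, plus strand: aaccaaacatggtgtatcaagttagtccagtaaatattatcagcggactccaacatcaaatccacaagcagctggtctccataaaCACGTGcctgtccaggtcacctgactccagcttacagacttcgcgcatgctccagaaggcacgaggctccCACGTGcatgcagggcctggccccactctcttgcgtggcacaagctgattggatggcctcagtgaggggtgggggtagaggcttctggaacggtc
Piwil1, chr5:128735996-128736245, plus strand: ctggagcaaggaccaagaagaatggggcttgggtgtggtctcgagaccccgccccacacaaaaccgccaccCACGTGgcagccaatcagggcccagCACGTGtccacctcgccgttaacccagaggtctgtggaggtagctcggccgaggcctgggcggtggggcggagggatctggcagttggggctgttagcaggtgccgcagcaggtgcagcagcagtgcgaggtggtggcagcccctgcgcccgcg
Tdrd1, chr19:56825959-56826208, plus strand: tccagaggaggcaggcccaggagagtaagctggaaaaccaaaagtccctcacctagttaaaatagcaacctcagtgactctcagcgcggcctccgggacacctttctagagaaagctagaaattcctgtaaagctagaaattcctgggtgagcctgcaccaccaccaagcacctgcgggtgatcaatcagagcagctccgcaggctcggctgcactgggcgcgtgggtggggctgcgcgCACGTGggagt
The E-box began 29 bases before the start of Ddx4, 223 before that of Mael, 246 before that of Mov10l1 and 11 before that of Tdrd1. Tdrd9 had 2 matches, of which the farther began 165 bases before the start, and Piwil1 also had 2, the farther at 179 bases. No match was found in the windows of Asz1, Tdrkh and Piwil4. The hexamer GCGGGA, which E2F factors bind, was read on both strands and lay in the windows of Ddx4 and Mael and in 20.0% of all promoters. TAATTG, a homeobox core read on both strands, lay in that of Tdrkh and in 8.0% of all promoters. All 9 genes had a window with at least 10 CpG, that of Ddx4 having 38 and that of Tdrd9 10, and the median promoter had 7 (quartiles 3 and 20). The E-box was shared by genes whose RNA levels differed in course, 4 that fell from NGO to GO1, 1 that rose (Piwil1) and 1 that did neither (Tdrd1), as described in the following paragraphs.

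Together the 10 genes had 1147 CPM in NGO (95% interval 1133 to 1160), then 456 (448 to 464), 397 (389 to 405) and 473 (467 to 479) in the growing stages and 570 (564 to 576) in FGO. The summed level was thus highest before growth, lowest in GO2, and higher again in the fully grown oocyte. These levels are shares of the UMIs and not amounts per oocyte. The study reported, from spike-in RNA, a higher relative abundance of mRNA at GO1 than at NGO. Single cells ranged from 812 to 1800 CPM in NGO with a median of 1101, and from 226 to 914 in GO1 with a median of 397, so cells of the 2 stages overlapped. The highest GO2 and GO3 cells reached 486 and 614 CPM and the highest FGO cell 760 CPM, all below the lowest NGO cell. From NGO to GO1, 5 of the 9 members that reached 10 CPM in NGO or GO1 fell (Ddx4, Piwil2, Mael, Mov10l1 and Tdrd9) and 1 rose (Piwil1). Among all 8527 genes above that level 25.7% fell and 20.6% rose, and the median difference in log2(CPM + 1) was -1.96 over the members and -0.14 over all genes. The share of members that fell was thus above that of all genes. With 1 of 9, the share that rose is too coarse to be set apart from that of all genes.

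**Figure D1:**
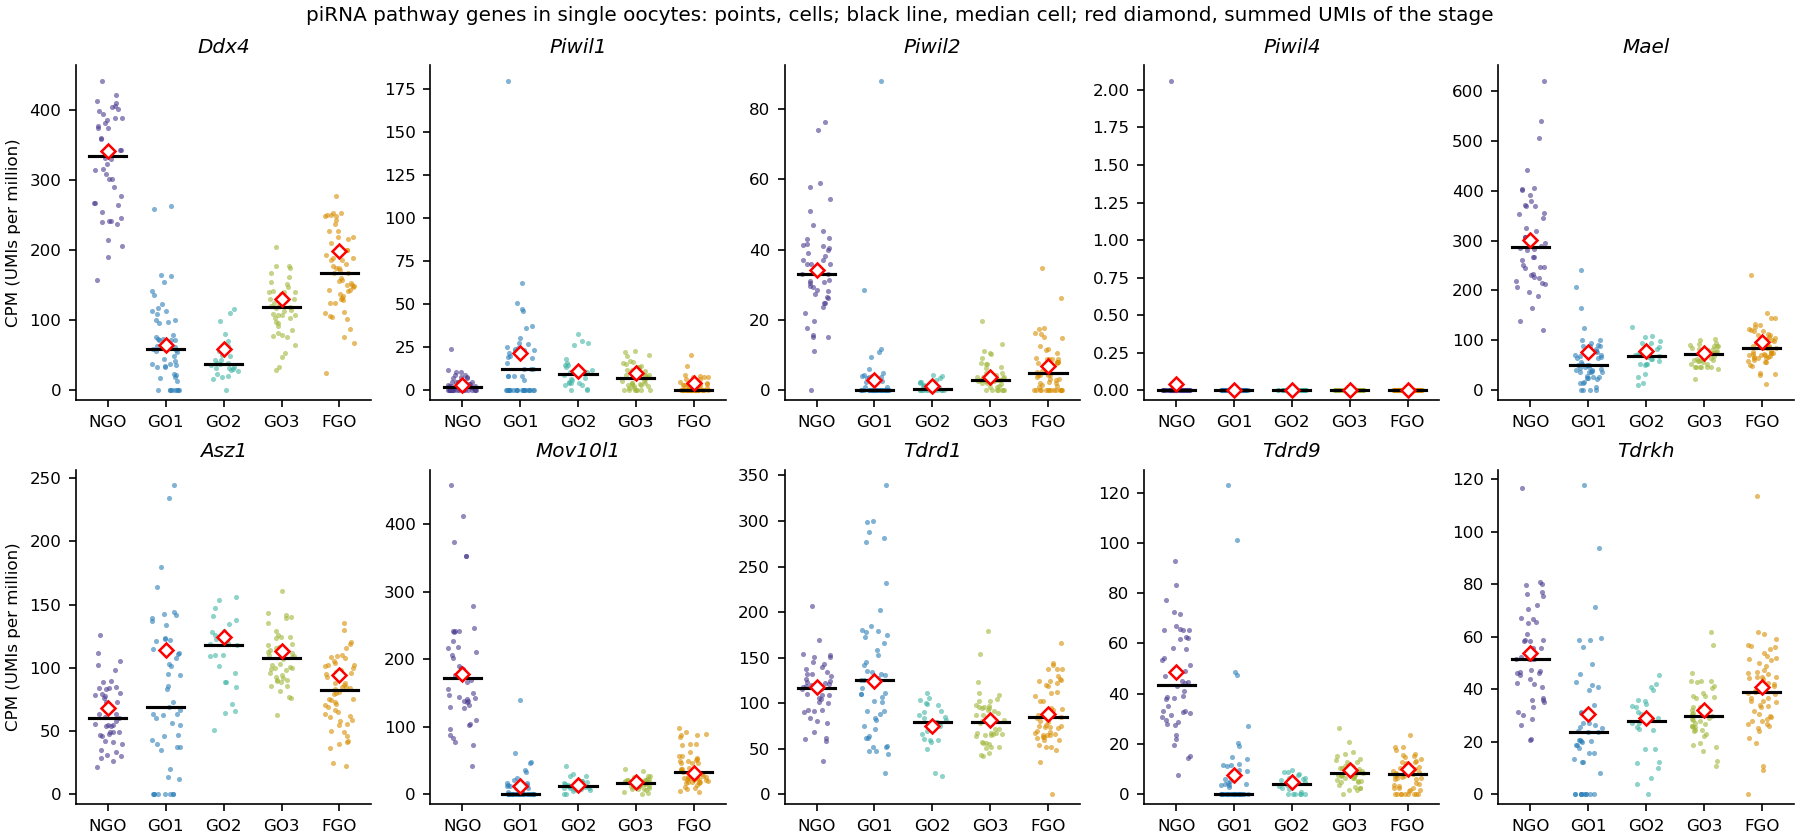
CPM of each of the 10 genes (vertical axes, linear) in each oocyte, by stage from NGO to FGO (horizontal axes), with the median cell as a black line and the CPM of the summed UMIs as a red diamond. For Ddx4, Mael and Mov10l1 no later cell lay above the median NGO cell, for Piwil1 the GO1 cells reached highest, and Piwil4 had 1 UMI in 1 NGO cell.

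The PIWI proteins are the effectors of the pathway. Piwil2 (MILI, chromosome 14, 70772287 to 70828901, minus strand, build mm9) binds piRNAs in the cytoplasm from fetal life on, and its level was highest in the non-growing oocyte. Its level was 34.1 CPM in NGO from 859 UMIs, 2.88, 1.32 and 3.83 CPM through GO1, GO2 and GO3, and 6.81 CPM in FGO. Cells ranged from 0 to 76.4 CPM in NGO with a median of 33.02, and the medians of the later stages from GO1 to FGO were 0, 0.42, 2.80 and 4.79. Piwil2 was therefore high in most NGO cells and at or near 0 in the typical GO1 and GO2 cell, although 1 GO1 cell reached 88.1 CPM and none of the 46 NGO cells exceeded it. The level fell 11.8-fold from NGO to GO1 (interval 9.37 to 15.2) and was 5.01-fold lower in FGO than in NGO (4.46 to 5.63). From GO1 to FGO the level stayed under 10 CPM, so no change between those stages could pass the size rule. The order of the levels was NGO, FGO, GO3, GO1 and GO2, and the intervals of GO3 and GO1 overlapped.

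Piwil1 (MIWI, chromosome 5, 129242121 to 129261349, plus strand) is the PIWI protein best known from meiotic and postmeiotic male germ cells, and its course was the reverse. It had 2.86 CPM in NGO (72 UMIs), 21.4 at GO1 (573), 11.3 at GO2 (281), 9.88 at GO3 (492) and 3.87 in FGO. Median cells had 1.79, 12.1, 9.62, 7.17 and 0.13 CPM in the same order. The highest GO1 cell had 179.5 CPM, and it was the shallowest cell of the table, with 22279 UMIs in all. NGO and FGO were both low with GO1 between them the highest, and 1 of the 46 NGO cells lay above the GO1 median. Piwil1 rose 7.50-fold from NGO to GO1 (5.86 to 9.72). GO2 was 1.90-fold lower than GO1 (1.65 to 2.20), short of the rule, a log2 ratio of -0.93 that lay between -3.28 in thinned cells and -0.02 without the 10 deepest cells. Piwil1 passed the rule there with 26 cells per stage and with thinned cells. FGO was 2.55-fold lower than GO3 (2.19 to 2.98) with neither stage at 10 CPM, and it passed the rule with TMM factors and with 26 cells per stage, where a stage reached that level. The intervals of GO2 and GO3 overlapped, as did those of FGO and NGO. With the mean over cells in place of the sum the order of FGO and NGO was turned. The share of cells with a UMI, after each cell was thinned to 20000 UMIs, was 0 of 46 in NGO, which allows a share of up to 6.52% by the limit of 3 counts and 7.71% by the exact binomial interval, and 29.4% in GO1 (exact binomial interval 17.5% to 43.8%). It was 3.85% in GO2, 6.82% in GO3 and 7.14% in FGO, near the limit of detection since 1 UMI was then 50 CPM. With all UMIs 56.5% of NGO cells had a Piwil1 UMI and 60.8% of GO1 cells, so the thinned shares describe detection at that depth and not the cells that express the gene.

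Piwil4 (MIWI2, chromosome 9, 14500674 to 14545177, minus strand) is the nuclear PIWI protein that directs DNA methylation of transposons in fetal male germ cells. It had 1 UMI in 1 NGO cell and 0 in the other stages, of 191061593 UMIs in all. The limit of 3 UMIs taken for a count of 0 corresponds to 0.047 to 0.120 CPM, depending on the total of the stage. Its exons overlap an antisense gene, Gm10706, in the annotation. No cell type that should lack the other 9 genes was in the table, so a background of stray UMIs was not measured for them.

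Ddx4 (VASA, chromosome 13, 113388541 to 113442518, minus strand) is a DEAD-box RNA helicase of the nuage and a general marker of germ cells. Its level was 341.7 CPM in NGO, 65.2 at GO1, 58.5 at GO2, 129.9 at GO3 and 198.3 in FGO. Cells ranged from 156.8 to 442 CPM in NGO with a median of 335, from 0 to 263 in GO1 with a median of 58.9, and from 0 to 116.7 in GO2 with a median of 37.8. In GO3 they ranged from 28.9 to 204 with a median of 118.7, and in FGO from 25.1 to 277 with a median of 168. All 46 NGO cells lay above the highest GO2 cell, 44 above the highest GO3 cell and 33 above the highest FGO cell. Ddx4 fell 5.24-fold from NGO to GO1 (4.98 to 5.52) and rose 2.22-fold from GO2 to GO3 (2.10 to 2.35). The further difference from GO3 to FGO was 1.53-fold (1.48 to 1.57) and FGO was 1.72-fold lower than NGO (1.68 to 1.77), both short of the rule. None of the neighbours in the order NGO, FGO, GO3, GO1 and GO2 had overlapping intervals. At 20000 UMIs per cell, Ddx4 was found in 100% of NGO cells (interval 92.3% to 100%), and in 64.7%, 46.2%, 84.1% and 94.6% of the cells from GO1 to FGO. Within NGO, GO2, GO3 and FGO the deeper cells had the higher Ddx4 CPM (Spearman rho 0.43, 0.44, 0.55 and 0.56 over 46, 26, 44 and 56 cells of 1 stage each) but not within GO1 (rho -0.02, 51 cells), which is given as a description, and the part of depth in the stage differences was not tested beyond the thinned values.

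The precursors of piRNAs are bound and unwound by Mov10l1 (chromosome 15, 88813339 to 88885582, plus strand), an RNA helicase at the head of their processing, and of the 10 genes it had the largest ratio of NGO to GO1, with an interval that overlapped that of Piwil2. It had 178 CPM in NGO, 12.2, 13.6 and 17.7 CPM over the growing stages and 31.4 CPM in FGO. Cells ranged from 41.8 to 458 CPM in NGO with a median of 173, from 0 to 140 in GO1 with a median of 0, and from 4.20 to 98.2 in FGO with a median of 32.6. Every NGO cell was above the highest GO3 cell and 40 of 46 were above the highest FGO cell. The fall from NGO to GO1 was 14.6-fold (13.1 to 16.4), and FGO was 5.67-fold lower than NGO (5.38 to 5.98). From GO3 to FGO the level was 1.78-fold higher (1.64 to 1.92), short of the rule, which it passed with the mean over cells (log2 1.22) and without the 10 deepest cells (1.202). The intervals of GO2 and GO1, the lowest stages, overlapped. At 20000 UMIs per cell the share with a UMI was 95.7%, 17.6%, 15.4%, 31.8% and 46.4% from NGO to FGO, the same high, low and partly higher course as the CPM.

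Mael (Maelstrom, chromosome 1, 168131516 to 168168875, minus strand), a nuage protein needed for transposon silencing, had 301.3 CPM in NGO, 76.9, 78.8 and 74.1 CPM during growth and 96.1 CPM in FGO. Its NGO cells ranged from 120.6 to 620.8 CPM with a median of 287, and the medians of the later stages were 49.9, 69.3, 71.9 and 84.6. All 46 NGO cells were above the highest GO3 cell and 35 above the highest FGO cell. Mael fell 3.92-fold from NGO to GO1 (3.73 to 4.12) and was 3.14-fold lower in FGO than in NGO (3.03 to 3.24). Unlike Ddx4 it was nearly level across the growing stages, where the 3 values lay within 1.06-fold of each other or less from each stage to the next and the intervals of GO2 and GO1, and of GO1 and GO3, overlapped. The median GO1 cell was lower than the medians of GO2 and GO3.

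Tdrd9 (chromosome 12, 113209770 to 113307065, plus strand), which joins a helicase to a Tudor domain, had 48.7, 7.89, 5.04, 9.51 and 9.98 CPM from NGO to FGO. NGO cells ranged from 7.80 to 92.96 CPM with a median of 43.6, and GO1 cells from 0 to 123.02 with a median of 0. It fell 6.18-fold from NGO to GO1 (5.34 to 7.19) and was 4.88-fold lower in FGO (4.43 to 5.38). No NGO cell exceeded the highest GO1 cell, though 41 of 46 exceeded the highest FGO cell. The intervals of FGO and GO3, and of GO3 and GO1, overlapped, and with the mean over cells GO1 stood second after NGO. From GO2 to GO3 the level was 1.89-fold higher, but lower in thinned cells (log2 0.92 and -1.17). The thinned value rests on few cells with a UMI, 5 of 26 in GO2 and 5 of 44 in GO3. The order of the later stages depended on the processing. In the thinned cells 47.8% of NGO and 11.4% to 19.6% of the later stages had a UMI.

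The remaining Tudor and scaffold genes stayed within 2-fold in every comparison of the summed UMIs, though Tdrkh fell from NGO to GO1 in thinned cells (log2 -1.03) and Tdrd1 from GO1 to GO2 with 26 cells per stage (-1.01). Tdrd1 (chromosome 19, 56900699 to 56944502, plus strand), a Tudor protein that binds MILI, had 117.9, 124.5, 74.9, 82.2 and 87.99 CPM over the same stages. GO2 was 1.66-fold lower than GO1 (1.57 to 1.76), the intervals of GO1 and NGO overlapped, and cells overlapped between all stages. Tdrkh (chromosome 3, 94217218 to 94236555, plus strand), a mitochondrial Tudor protein needed for the trimming of piRNA ends, had 53.8, 30.7, 28.9, 32.3 and 40.96 CPM from NGO to FGO. NGO was 1.76-fold above GO1 (1.61 to 1.92), and the intervals of GO3 and GO1 and of GO1 and GO2 overlapped. Asz1 (GASZ, chromosome 6, 18000964 to 18059061, minus strand), a scaffold of the nuage at mitochondria, had 68.2, 114.5, 124.4, 113.2 and 94.4 CPM. Its level was lowest in NGO and highest in GO2. It was 1.68-fold higher in GO1 than in NGO (1.58 to 1.78), a log2 ratio of 0.75 that lay between 0.06 and 0.91 over the ways of scaling and summing. For Asz1, 44 of 44 GO3 cells and 25 of 26 GO2 cells were above the NGO median of 60.8 CPM. The mean over GO1 cells was 79.7 CPM, lower than the 114.5 CPM of the sum, and by that measure GO1 stood below GO2, GO3 and, at 80.2 CPM, FGO.

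**Figure D2:**
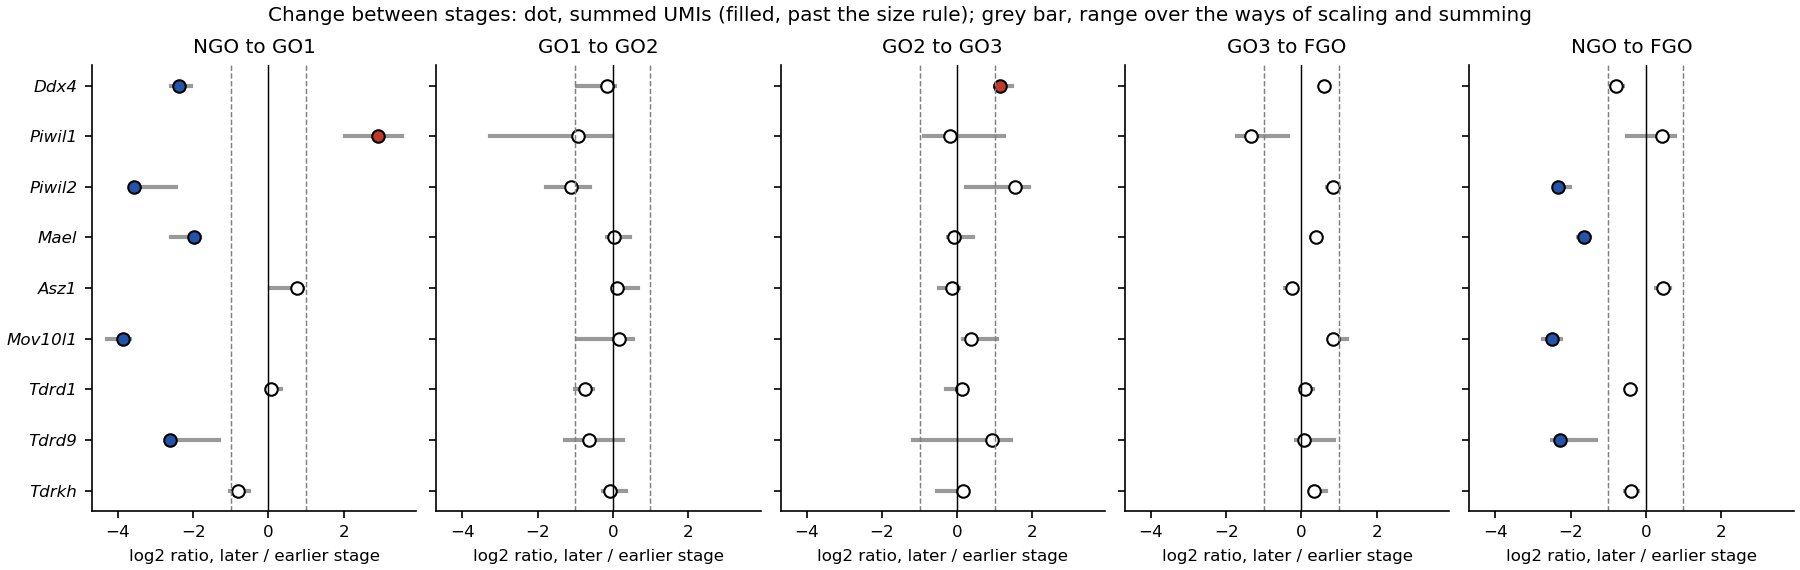
Log2 ratio of CPM, later over earlier stage (horizontal axes), for the 9 genes above 10 CPM in any stage, in 5 comparisons. Dots are the summed UMIs, blue where the gene fell and red where it rose by the size rule, white otherwise, dashed lines mark 2-fold, and grey bars span the ways of scaling and summing. For the 5 genes that fell from NGO to GO1 the whole bar lay below the 2-fold line.

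Across growth itself few members passed the rule, and few of all genes did. From GO1 to GO2 none of the 7 members with at least 10 CPM passed the rule in either direction, where 3.03% of 7356 genes fell and 0.109% rose. That split of all genes, 8 higher and 223 lower, was 682 to 596 without the 10 deepest cells of each stage and 306 to 908 with the mean over cells. From GO2 to GO3, 1 of 7 rose (Ddx4) and none fell, against 3.34% and 1.01% of all genes. From GO3 to FGO none of 6 passed, against 2.41% of genes that rose and 3.54% that fell. Of those 6 members, 5 had a higher level in FGO and 1, Asz1, a lower one. Of all 7622 genes in that comparison, 4359 were higher in FGO and 3263 lower. The median difference in log2(CPM + 1) was 0.35 over the 6 members against 0.06 over all genes. Between NGO and FGO 4 of 8 members were lower by the rule (Piwil2, Mael, Mov10l1 and Tdrd9) and none higher, against 16% lower and 11.3% higher of 8132 genes, with medians of -1.21 and -0.12. These comparisons share their stages, so they are not independent of each other.

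**Figure D3:**
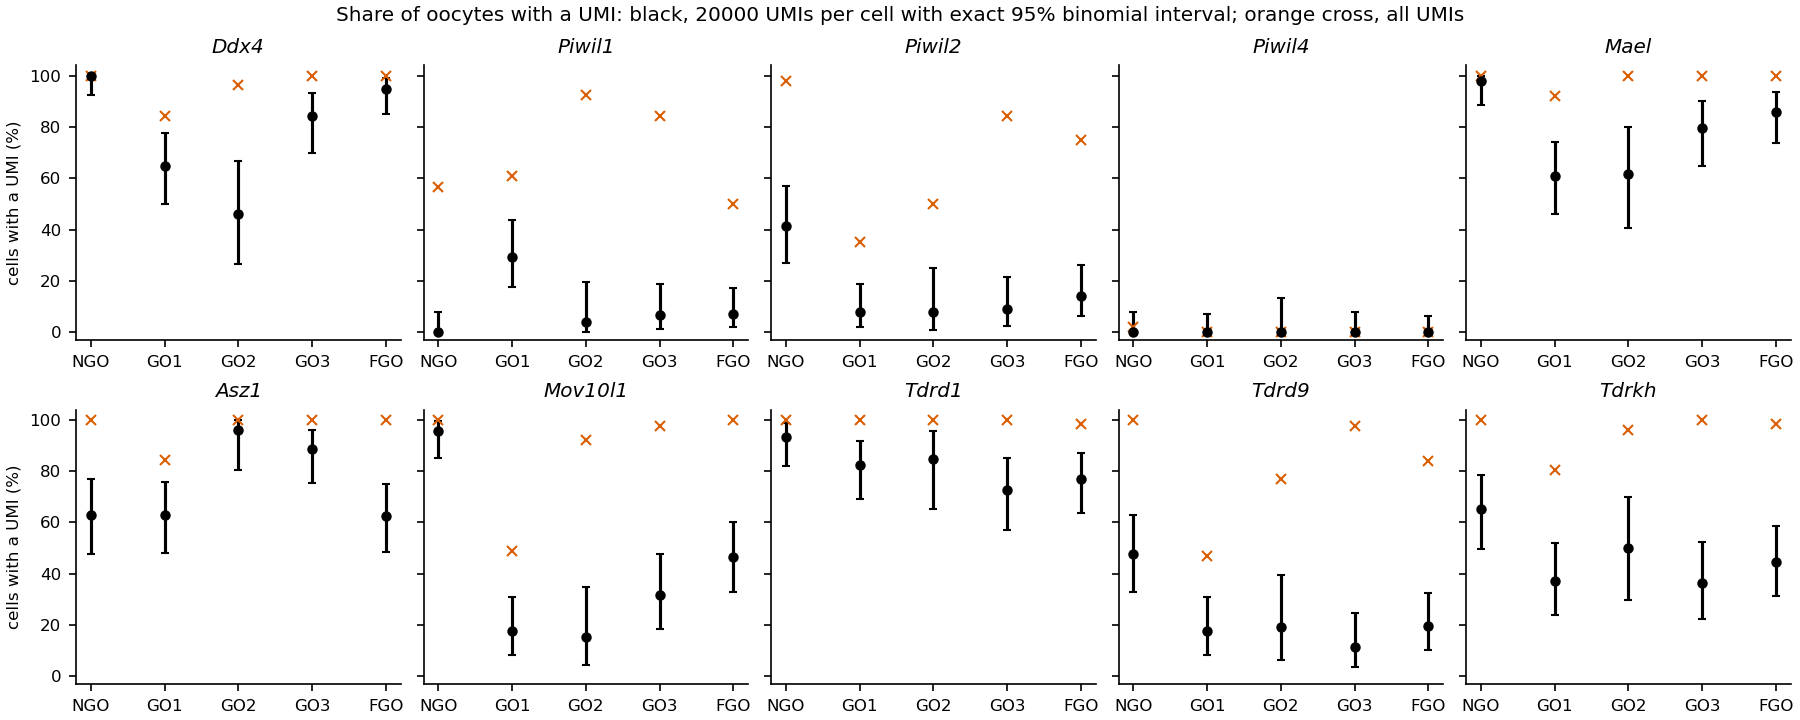
Share of oocytes with at least 1 UMI of each gene (vertical axes, %), by stage, at 20000 UMIs per cell (black, with exact 95% binomial interval) and with all UMIs (orange crosses). At equal depth Ddx4 went from 100% in NGO to 46.2% in GO2 and 94.6% in FGO, and Mov10l1 from 95.7% to 15.4% and 46.4%.

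A wider list of 25 genes of piRNA biogenesis and its regulation was examined beside the members, of which 24 were in the table. From NGO to GO1, 7 of the 19 with at least 10 CPM fell and 4 rose, beside 25.7% and 20.6% of all genes, with a median difference in log2(CPM + 1) of -0.63. The share that rose, 4 of 19, was near that of all genes. The genes that fell were led by Gpat2, a mitochondrial membrane protein of primary piRNA biogenesis, from 46.6 to 1.94 CPM, and Fkbp6, a Tudor partner with an immunophilin fold, from 208 to 18.1 CPM. Prmt5, the enzyme that methylates arginines of PIWI proteins, fell from 53.6 to 11.8 CPM, Pnldc1, the trimming exonuclease, from 35.2 to 11.8, and Pld6, the mitochondrial endonuclease, from 29.2 to 10.1. Those that rose included Henmt1, which methylates the ends of piRNAs, from 17.8 to 89.7 CPM, Mybl1, a transcription factor of piRNA genes in the testis, from 3.14 to 15.8, and Tdrd12 from 90.1 to 290. The other 3 past the rule, named after their values were seen, were Tdrd5 (332.2 to 131.7 CPM) and Tex19.1 (167 to 72.7), which fell, and Gtsf1, a PIWI-binding zinc finger protein, which rose from 893 to 1837. The endonuclease and the trimming enzyme were thus lower and the end-methylating enzyme higher.

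From GO1 to GO2 and from GO2 to GO3 none of 18 and of 17 genes of the wider list passed the rule. From GO3 to FGO, 3 of 19 rose, beside 2.41% of all genes: Prmt5 from 8.17 to 26.5 CPM, Gpat2 from 5.78 to 13.4 and Fkbp6 from 22.2 to 45.1. All 3 were among those that had fallen from NGO to GO1. Between NGO and FGO 2 of 18 were higher (Tdrd12 and Henmt1) and 4 lower (Fkbp6, Gpat2, Pnldc1 and Prmt5), with a median of -0.46. Both shares were near those of all genes, 11.3% higher and 16% lower.

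Other lists gave the members' course a frame. Of 10 genes of the Dicer and Argonaute pathway, which makes siRNAs and miRNAs, 5 had at least 10 CPM. None of the 5 passed the rule from NGO to GO1, where 25.7% of all genes fell and 20.6% rose. Of the 5, 2 were higher in GO1 and 3 lower, and Drosha, 1.93-fold lower, was just short of the rule. Dicer1, named after its values were seen, was at 378 CPM in NGO, 721 in GO1 (1.91-fold higher, also just short) and 581 in FGO. Between NGO and FGO 1 of 5 was lower, Drosha, from 57.7 to 21.6 CPM, beside 16% of all genes. Of the synaptonemal complex and cohesin genes of meiotic prophase, 5 of the 8 with at least 10 CPM fell from NGO to GO1, beside 25.7% of all genes, among them Sycp3 (1098 to 46.7 CPM), Smc1b (660 to 65.8), Sycp1 (172 to 30.3) and Syce1 (79.8 to 10.5), and the median difference was -2.64. The other 3 were higher in GO1 without passing the rule, Sycp2 at 42.3 and 75.7 CPM, Syce2 at 961 and 1093 and Tex12 at 15.04 and 19.2. From GO3 to FGO 2 of 7 of these rose, beside 2.41% of all genes, Syce1 from 7.39 to 30.96 CPM and Smc1b from 76.97 to 157.9. Of the 10 oocyte markers 4 fell from NGO to GO1, beside 25.7% of all genes. They were Figla (597 to 65.5 CPM), Zp2 (4250 to 827), Zp3 (11226 to 4217) and Zp1 (2727 to 1266). In the same comparison 2 rose, Bmp15 (128.6 to 825) and Oosp1 (274 to 734), beside 20.6% of all genes. The summed level of the 10 oocyte markers was 28463, 15882, 17222, 17896 and 22103 CPM from NGO to FGO, also highest in NGO and next in FGO. No test set the members apart from the meiotic list or from the oocyte markers.

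**Figure D4:**
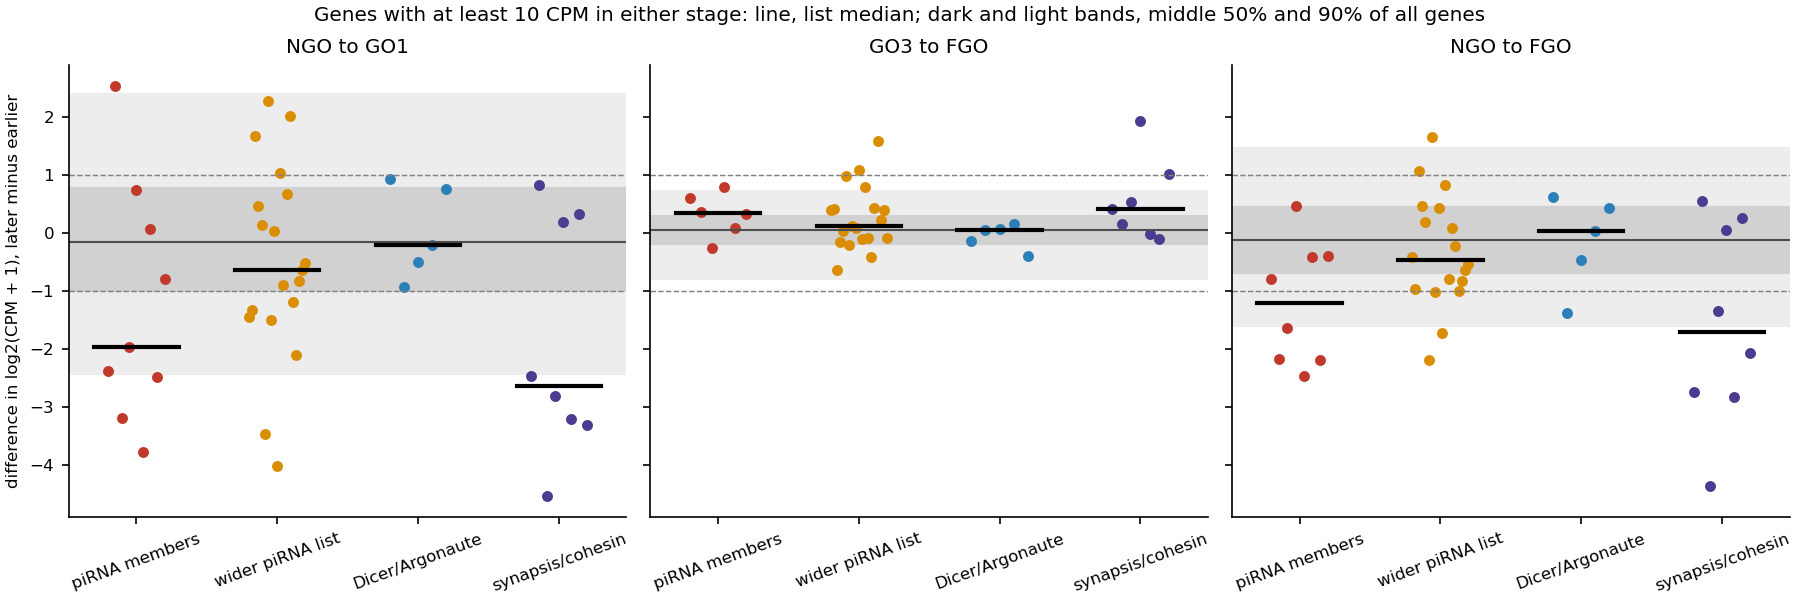
Difference in log2(CPM + 1), later minus earlier stage (vertical axis), for genes that reached 10 CPM in 1 of the stages compared, in 4 gene lists and 3 comparisons. Points are genes, black bars list medians, the dark and light bands the middle 50% and 90% of all genes, and dashed lines mark 2-fold. From NGO to GO1 the median of the members was -1.96 and that of the meiotic genes -2.64, below the dark band.

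The members differed among themselves in course over the 5 stages. Measured by the root mean square difference of log2(CPM + 1) centred over the 5 stages, the closest pair was Mov10l1 and Piwil2 (0.31), followed by Tdrd1 and Tdrkh (0.33), and the farthest was Mov10l1 and Piwil1 (2.23). Among genes outside the list that reached 10 CPM in some stage, the courses most like Ddx4 were those of Fam136a (0.061) and Nudt17 (0.069). For Piwil1 they were Cyfip2 (0.13) and Gm19705 (0.15), and for Piwil2 1700123O20Rik (0.077) and Shmt1 (0.14). For Mov10l1 they were Bpnt1 (0.097) and Ctsd (0.12), for Mael Lamp1 (0.044) and Ndufv1 (0.051), and for Tdrd9 Tomm70a (0.079) and Fbxw2 (0.12). Those nearest to the flatter members were Psma7 and C87436 for Asz1 (0.037 each), Polr2k (0.030) and Mta1 (0.041) for Tdrd1, and Mbd1 (0.0076) and Hint2 (0.025) for Tdrkh. Likeness over 5 pooled stages is a description, and many genes share such courses. Over cells of 1 stage, Spearman rho was taken for pairs of members found in enough thinned cells of that stage, so the pairs differed between stages. It was -0.21 to 0.19 in NGO (46 cells), -0.15 to 0.32 in GO1 (51) and -0.26 to 0.63 in GO2 (26). In GO3 (44) it was -0.19 to 0.35 and in FGO (56) -0.21 to 0.25. The highest value was that of Asz1 and Tdrkh in GO2, whose CPM also went with the depth of the cell (rho 0.60 and 0.31). That pair had a rho of -0.12 in NGO and was not taken in the other stages. These are descriptions, as the cells of a stage share libraries and differ in depth.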

How the data were processed

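Single-cell RNA-seq libraries with UMIs were made from picked oocytes. Per the study's methods, the authors sorted reads by cell barcode, trimmed the reads, placed them on mm9 transcripts with Tophat, collapsed those with the same UMI, kept cells within limits on genes, transcripts and spike-ins, and deposited whole-number counts of UMIs per gene and cell, not normalized. How doublets were treated is not given in the sources used here. The deposited columns name the stage of a cell and not its library, and the iscCOOL-seq data were not analysed here.

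For each gene the UMIs of all cells of 1 stage were added and expressed per 1e+06 UMIs of that stage (CPM), with Python 3.11.15, numpy 2.4.6, pandas 2.3.3 and scipy 1.17.1. A log2 difference of lists was taken with a pseudocount of 1 CPM. Alternative scaling factors came from DESeq2 1.42.0 and edgeR 4.0.16 (TMM). The size rule was tried on simulated stage sums with counting error only and planted changes larger than 2-fold. That trial cannot show how the rule does near its limit or with the spread between cells. Gene positions are from GENCODE vM1 (mm9). The 10 members, the lists and the motifs were chosen with earlier results of these data known. Genes outside the members were named where they passed the rule between NGO and GO1 or FGO, at most the 8 with the largest change per list, or were the 2 nearest in course to a member.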

Additional observations from a re-analysis of the deposited data

How the results depend on the processing

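The 6 changes of members from NGO to GO1, the rise of Ddx4 from GO2 to GO3 and the 4 differences between NGO and FGO held with DESeq2 size factors, TMM factors, the mean over cells, 26 cells per stage, cells thinned to 20000 UMIs, without the 10 deepest cells, and without the NGO cell rich in stromal markers, the last chosen after seeing the data. The log2 ratio of Ddx4 from GO2 to GO3 ranged from 1.001 to 1.46 over the settings, so at its lowest it was barely past the rule. In thinned cells Tdrkh also fell from NGO to GO1. With a minimum of 50 CPM the members past the rule were 3 from NGO to GO1 and 2 between NGO and FGO, as fewer genes were examined. From GO1 to GO2, where 0 members passed, 1 passed with the mean over cells (Tdrd9), with thinned cells (Piwil1) and without the filter on low counts, 2 with a 1.5-fold limit and 3 with 26 cells per stage (Piwil1, Tdrd1 and Tdrd9). From GO2 to GO3, where 1 passed, 3 did with thinned cells and 2 without the filter. Of the 3, Mov10l1 rose and Tdrd9 fell, its log2 ratio of 0.92 turning to -1.17. The thinned value of Tdrd9 rests on few cells with a UMI, 5 of 26 in GO2 and 5 of 44 in GO3. From GO3 to FGO, where 0 passed, 1 did with TMM factors and 26 cells (Piwil1), with the mean over cells and without the 10 deepest cells (Mov10l1) and without the filter, and 2 with a 1.5-fold limit.

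Of the wider piRNA list 7 in place of 11 passed from NGO to GO1 at 50 CPM. From GO1 to GO2, in place of 0, 1 passed with 26 cells and without the filter, 2 without the 10 deepest cells and with a 1.5-fold limit, and 3 with thinned cells. From GO2 to GO3, in place of 0, 1 passed without the 10 deepest cells, 2 without the filter and 3 with thinned cells. From GO3 to FGO, in place of 3, 0 passed at 50 CPM and 5 with a 1.5-fold limit, and between NGO and FGO, in place of 6, 10 without the filter and 11 with a 1.5-fold limit. The summed CPM of the members from NGO to FGO was 1130, 416, 359, 444 and 524 as the mean over cells and 1118, 422, 379, 406 and 512 in thinned cells. With 26 cells it was 1172 in NGO and 492 in GO1, and without the 10 deepest cells 370, 360, 443 and 536 from GO1 to FGO. Except where fewer genes were examined, the cause was not tested.

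Over all genes the median difference from NGO to GO1 was -0.14 by total UMIs, -0.02 with DESeq2 size factors, 0.05 with TMM factors and -0.43 without the 10 deepest cells. Between NGO and FGO 920 genes rose and 1302 fell by total UMIs, against 1204 and 916 with TMM factors. From GO1 to GO2 the split was 8 to 223, 14 to 82 with DESeq2 size factors and 682 to 596 without the 10 deepest cells, and from GO2 to GO3 245 to 74, and 173 to 120. No paired analysis was possible because the cells carry no replicate or library number. Each stage is 1 pooled sample, so no value measures the spread between animals or libraries, levels are relative to all RNA of a cell and not per cell, and the 13 GO1 cells under 50000 UMIs limit what was detectable for Piwil1 and Piwil2.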
